A study of Mus musculus with 6 samples.

Results

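Sox7, Sox17 and Sox18 make up the SoxF group of transcription factors, and all 3 were found by symbol among the 38918 genes of the deposited table. RNA sequencing was run on entire hearts of mice at embryonic day 11.5, on a background given as C57/BL6. The conditional knockout hearts carried Nfatc1Cre and were Tie2 flox/flox, so that Tek, the gene of the angiopoietin receptor Tie2, is removed where Cre from the endocardial gene Nfatc1 is active. The littermate control hearts were Tie2 flox/wild-type, with no Cre named in their label, so both groups carry at least 1 floxed allele. Each group had 3 libraries drawn from 18 pooled hearts of that genotype. The members were chosen by symbol, with their FPKM levels in these knockout and control libraries already known, so differences in them are given as a description, with no test.

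SoxF proteins bind DNA through an HMG box and act in endothelial cells, the cells that line vessels and the inside of the heart. Sox17 is also known in definitive endoderm and in arterial endothelium, where it acts together with Notch signalling, and it has a role in the endocardium. Sox18 is mutated in the ragged mice and drives the start of lymphatic development through Prox1. Sox7 is needed in mice for vessel formation in the embryo, and the 3 genes can stand in for each other in part, so the balance between them in a tissue is of interest.

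The libraries were similar in size and differed in what else they held. FPKM values (fragment numbers divided by the length of the transcript and by the library's mapped total) summed to between 481334 and 582261 per library, and between 12647 and 13041 genes reached 1 FPKM. Heart muscle genes were high throughout, with Myl7, an atrial myosin light chain gene, at 2410 to 3914 FPKM. The endothelial cadherin gene Cdh5 was at 27.2 to 56.5 FPKM. Tek stood at 3.38, 3.13 and 3.13 FPKM in the conditional knockout libraries, against 22.4, 25.7 and 16.6 FPKM in the control libraries, and so followed the labels. Xist, which marks female cells, was at 32.9, 0.0295 and 0.0324 FPKM in the conditional knockout libraries and at 8.997, 40.7 and 0.0171 FPKM in the control libraries. Xist thus differed between libraries of the same genotype, although the series text describes portions of a pool, and the number of hearts behind each library is unclear.

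Sox7 was lower in the knockout hearts, Sox17 was higher, and Sox18 stood at the same mean in both groups. Sox7, on chromosome 14 from 63943673 to 63950732 (GRCm38), is a protein-coding gene of 2 exons. Its level was 5.96, 6.11 and 5.67 FPKM in the conditional knockout libraries, against 9.42, 10.3 and 9.33 FPKM in the control libraries. All 3 knockout libraries lay below every control library, and the libraries of each group lay close together. The means were 5.91 ± 0.224 FPKM in conditional knockouts and 9.67 ± 0.509 FPKM in controls (SD, n = 3 each), a ratio of 0.611. On the log2(FPKM + 1) scale the difference was -0.63 ± 0.089 (moderated SE), and 1.11% of the 12988 genes tested had a lower value. In a bulk sample, fewer endothelial cells and less Sox7 RNA per endothelial cell cannot be told apart.

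Sox17, on chromosome 1 from 4490931 to 4497354 (GRCm38), is the least abundant member and had the opposite difference. It stood at 1.83, 1.34 and 1.51 FPKM in the conditional knockout libraries, against 0.745, 0.763 and 0.903 FPKM in the control libraries. The groups did not overlap, and the lowest knockout library was above the highest control. The means were 1.56 ± 0.253 FPKM in conditional knockouts and 0.804 ± 0.0861 FPKM in controls (SD, n = 3 each), a ratio of 1.94. The difference on the log2(FPKM + 1) scale was 0.50 ± 0.15 (moderated SE), and 2.08% of the genes tested had a higher value. The added 1 FPKM shrinks the value of so low a gene, and on the plain log2 scale the difference was 0.95. Sox17 entered the test, which asked for a mean of at least 1 FPKM over all 6 libraries, only through its knockout values. The annotation places Gm37587, a transcript of the opposite strand that was not used here, over part of Sox17, and whether counting used strand is not stated.

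Sox18, on chromosome 2 from 181669836 to 181671640 (GRCm38), has a single annotated transcript of 1620 bases in 2 exons. It was at 10.3, 8.57 and 6.80 FPKM in the conditional knockout libraries, against 11.1, 8.40 and 6.52 FPKM in the control libraries. The knockout range lay within the control range. The means were 8.55 ± 1.73 FPKM in conditional knockouts and 8.66 ± 2.29 FPKM in controls (SD, n = 3 each). The difference on the log2(FPKM + 1) scale was -0.0058 ± 0.20 (moderated SE), and it changed sign under other scalings and when single libraries were left out.

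**Figure D1:**
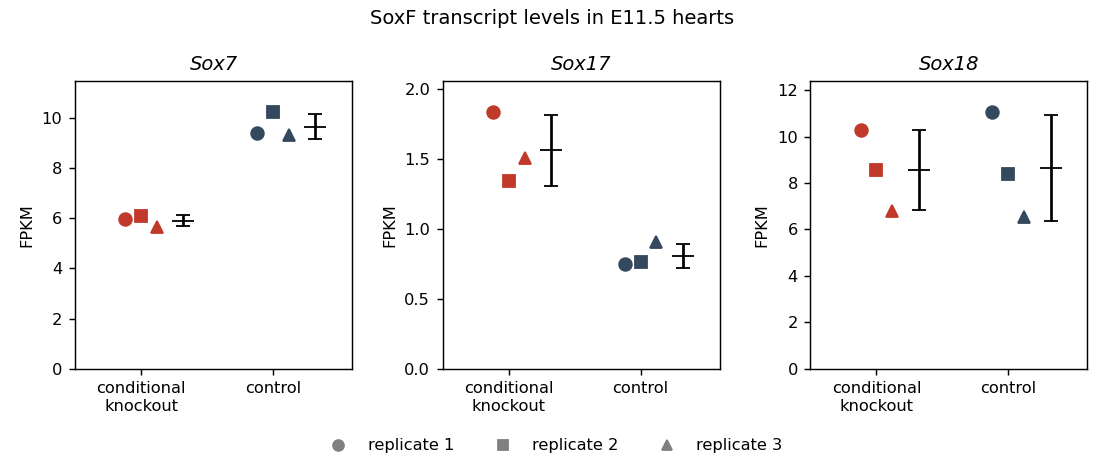
FPKM of Sox7, Sox17 and Sox18 in each library, with conditional knockout hearts on the left and control hearts on the right of each panel. Marker shapes give the replicate number and the bars give the mean ± SD of 3 libraries. Sox7 lies between 5.67 and 6.11 FPKM in knockouts and between 9.33 and 10.3 FPKM in controls, Sox17 is higher in all 3 knockouts, and Sox18 overlaps.

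Non-overlap of this kind was not rare in the table. Knockout libraries lay wholly below the controls for 8.17% of the 12988 genes and wholly above them for 5.23%, and of the 3 members Sox7 belongs to the first set and Sox17 to the second. The test over all genes (limma on log2(FPKM + 1), Benjamini-Hochberg adjustment, threshold 0.05) called 16 genes lower, or 0.123% of those tested, and 7 higher, or 0.0539%. With the replicate number as a block it called 11 lower and 6 higher. At an unadjusted p under 0.05, 4.37% of the genes were lower and 2.31% higher, the shares against which the unadjusted counts of the gene lists are to be read.

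Most of the spread of Sox18 followed the replicate number. In both groups replicate 1 was highest and replicate 3 lowest, a pattern shared by 8.4% of the genes tested. Between libraries of 1 group the highest level was 1.51 times the lowest in conditional knockouts and 1.698 times in controls. Between libraries of the same number, the knockout level was 0.929, 1.02 and 1.04 times the control level for replicates 1, 2 and 3. With the replicate number as a block, the error of the Sox18 difference shrank to 0.081, against 0.20 without it, around the same value of -0.0058 on the log2 scale. For Sox7 the same-number ratios were 0.633, 0.596 and 0.607, and for Sox17 they were 2.46, 1.75 and 1.67. Every such ratio was below 1 for Sox7 and above 1 for Sox17, which any pairing would give, as their groups do not overlap. Those of Sox18 fell on both sides. The labels give the numbers alone, and the pairs were inferred from these libraries, with that of replicate 2 uncertain.

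Sox18 also differs from the other members in base composition. The Sox18 transcript is 60.9% G and C, above the 57.8% that bounds the top decile of tested genes, against 51.05% for the longest transcript of Sox7 and 52.6% for that of Sox17. Replicate 1 exceeded replicate 3 for Sox18 by 0.53 in conditional knockouts and 0.68 in controls on the log2 scale. The median of the same difference over the 1286 genes in that decile was 0.18 in conditional knockouts and 0.051 in controls, and over all genes tested it was 0.0079 in conditional knockouts and 0.0041 in controls. A difference at least as large as that of Sox18 was found for 14.2% of the decile in conditional knockouts and 5.37% in controls. The part of base composition in the Sox18 spread was not tested.

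The balance between the paralogs differed between the groups in every ratio. A ratio within a library does not depend on the library total, and FPKM is scaled by transcript length. Effects of base composition and of the transcripts present can remain and were not checked. The order of members within a library, their shares and their ranks are therefore approximate. The Sox17 to Sox7 ratio was 0.308, 0.219 and 0.266 in the conditional knockout libraries, against 0.0791, 0.0744 and 0.0967 in the control libraries. Each knockout library was above each control, and the mean log2 ratio was -1.93 ± 0.25 in conditional knockouts and -3.59 ± 0.20 in controls (SD, n = 3 each), a 3.16-fold difference. This is the widest of the 3 shifts, since its members lie on opposite sides of 0.

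The other ratios shifted less. Sox18 to Sox7 was 1.72, 1.40 and 1.20 in the conditional knockout libraries, against 1.17, 0.819 and 0.698 in the control libraries. Sox18 thus had the higher FPKM in all 3 knockouts and in control replicate 1, and Sox7 had it in control replicates 2 and 3. The lowest knockout ratio, 1.20, was only just above the highest control ratio, 1.17. Sox17 to Sox18 was 0.179, 0.156 and 0.221 in the conditional knockout libraries, against 0.0674, 0.0909 and 0.139 in the control libraries. The lowest knockout ratio of Sox17 to Sox18, 0.156, was likewise near the highest control ratio, 0.139. The mean log2 differences of these ratios were 0.70 for Sox18 to Sox7 and 0.95 for Sox17 to Sox18. On the plain log2 scale Sox18 itself differed by -0.0051, so these values restate the differences of Sox7 (-0.71) and Sox17 (0.95). How often ratios of other gene pairs separate the groups was not examined.

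**Figure D2:**
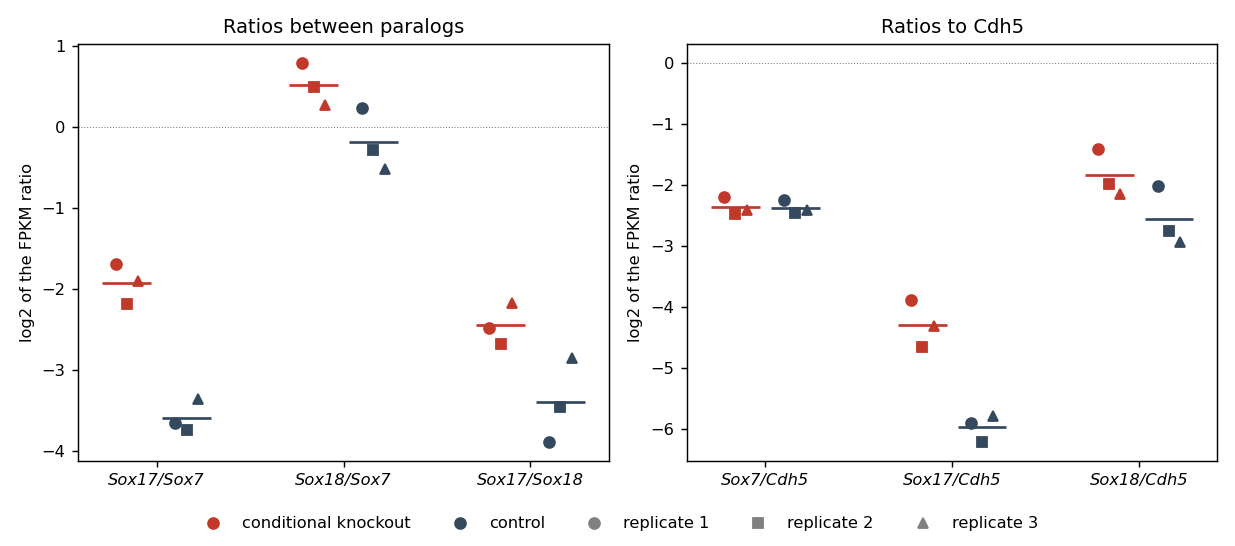
Log2 of the FPKM ratio within each library, between paralogs on the left and to Cdh5 on the right, with conditional knockouts left of controls. Points are libraries, shapes are replicate numbers and lines are group means. The Sox17 to Sox7 ratio has group means of -1.93 in knockouts and -3.59 in controls, and the Sox7 to Cdh5 ratio has overlapping groups.

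The share of Sox7 in the summed SoxF level was lower in every knockout library than in any control. It made up 32.98%, 38.1% and 40.5% of the sum in the conditional knockout libraries, against 44.4%, 52.8% and 55.7% in the control libraries. Sox17 made up 10.2%, 8.35% and 10.8% in the conditional knockout libraries, against 3.51%, 3.93% and 5.39% in the control libraries. The remainder was Sox18, at 48.7% to 56.9% in conditional knockouts and 38.9% to 52.1% in controls, which overlap. The sum itself was 18.1, 16.02 and 13.98 FPKM in the conditional knockout libraries, against 21.2, 19.4 and 16.8 FPKM in the control libraries. Its groups overlapped, as the sum carries the spread of Sox18, and in each same-number pair the knockout sum was below the control sum.

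**Figure D3:**
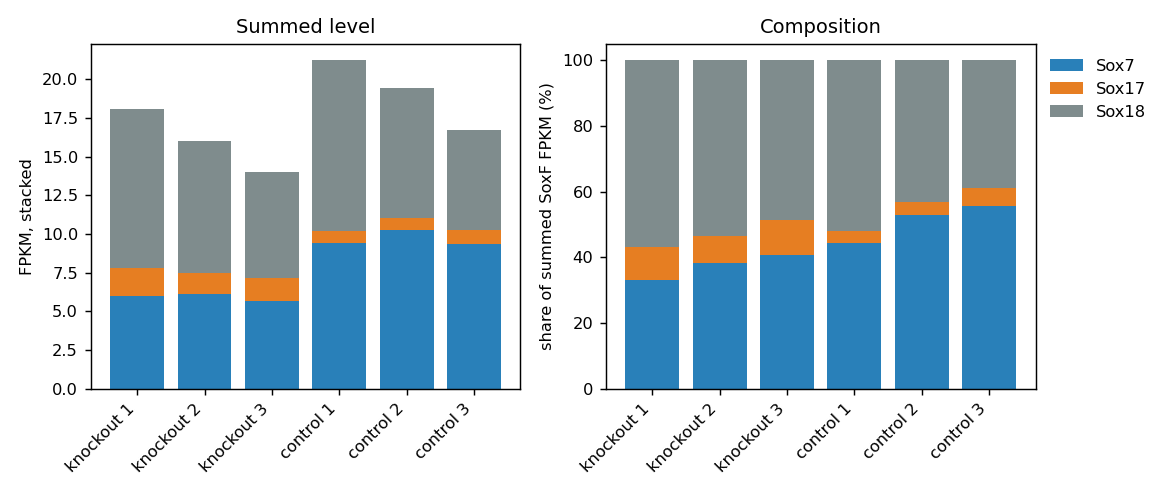
Stacked FPKM of Sox7, Sox17 and Sox18 in each library on the left and the share of each in their sum on the right, with the 3 conditional knockout libraries before the 3 controls. Sox7 holds 32.98% to 40.5% of the sum in knockouts and 44.4% to 55.7% in controls.

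Set against Cdh5, the cadherin of endothelial junctions, the members parted again. Cdh5 is itself reported elsewhere as a SoxF target, so it may not be independent of the members. Cdh5 was at 27.2, 33.9 and 30.1 FPKM in the conditional knockout libraries, against 44.6, 56.5 and 49.6 FPKM in the control libraries. Sox7 was 0.219, 0.18 and 0.189 of Cdh5 in the conditional knockout libraries, against 0.211, 0.182 and 0.188 in the control libraries. Library by library the values were close, with a mean log2 difference of 0.015. The knockout mean was 0.605 of the control mean for Cdh5 and 0.611 for Sox7. Sox17 was 0.0673, 0.0394 and 0.0501 of Cdh5 in the conditional knockout libraries, against 0.0167, 0.0135 and 0.0182 in the control libraries, with no overlap and a mean log2 difference of 1.67. Sox18 was 0.377, 0.253 and 0.226 of Cdh5 in the conditional knockout libraries, against 0.248, 0.149 and 0.131 in the control libraries, which overlap.

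The choice of endothelial gene sets these values. Relative to Pecam1, an adhesion gene of endothelium and blood cells, the mean log2 differences were -0.32 for Sox7, 1.34 for Sox17 and 0.38 for Sox18. Relative to the mean of 18 endothelial genes they were -0.40, 1.25 and 0.30. Sox7 did not overlap between the groups on either of these scales, with all knockout libraries lower, although it overlapped relative to Cdh5. Sox17 was higher in every knockout library on all 3 scales, and Sox18 overlapped on all 3. Between libraries of the same number, however, the Sox18 ratio was higher in the knockout in every pair on all 3 scales. These log2 differences were 0.61, 0.77 and 0.79 relative to Cdh5 for replicates 1, 2 and 3, and 0.30, 0.36 and 0.49 relative to Pecam1. Relative to the mean of the endothelial genes they were 0.17, 0.33 and 0.39. The pairing was inferred from these same libraries and is uncertain for replicate 2, so no conclusion is drawn from the pairs.

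Among endothelial genes Sox7 had a large negative difference and Sox17 a positive one. Of 18 pan-endothelial genes, Mmrn2, a matrix gene of endothelium, fell (limma log2 fold change -0.99 ± 0.10, adjusted p = 0.0171), and the other 17 missed the threshold. Mmrn2 passed without control replicate 1 (adjusted p = 0.025) and missed the threshold without any other single library, up to an adjusted p of 0.135. At an unadjusted p under 0.05, 11 of the 18 were lower and 1 was higher. Their median was -0.37, beside -0.013 over all genes tested. Sox7, at -0.63, lay below 14 of the 18 and above Mmrn2, Ramp2, Tie1 and Cdh5. Sox17, at 0.50, lay above 17 of them, and the exception was Robo4, a receptor gene that limits vessel leakage, at 0.74 ± 0.18 (adjusted p = 0.374). Sox18, at -0.0058, lay above 15 of the 18.

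Endocardial genes went lower than Sox7 in part. Of 10 tested, 5 fell and the others missed the threshold, and the median was -0.79. At an unadjusted p under 0.05, 9 of the 10 were lower and none was higher. The genes that fell were Tmem100, Plvap, Npr3, Gpr126 and Ednrb, with log2 fold changes of -1.35 to -1.004, and all 5 of them lay below Sox7. With the replicate block Tmem100 missed the threshold (adjusted p = 0.0542), and without single libraries 4 of these 5, all but Npr3, missed it in at least 4 of 6 fits. The adjusted p then ran from 0.0177 to 0.171 over these 4 genes: Ednrb and Plvap passed without control replicate 1, Plvap also without control replicate 3, and Tmem100 without knockout replicate 1. Nfatc1, Klf2, Cgnl1, Gata5 and Klf4 lay above Sox7.

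**Figure D4:**
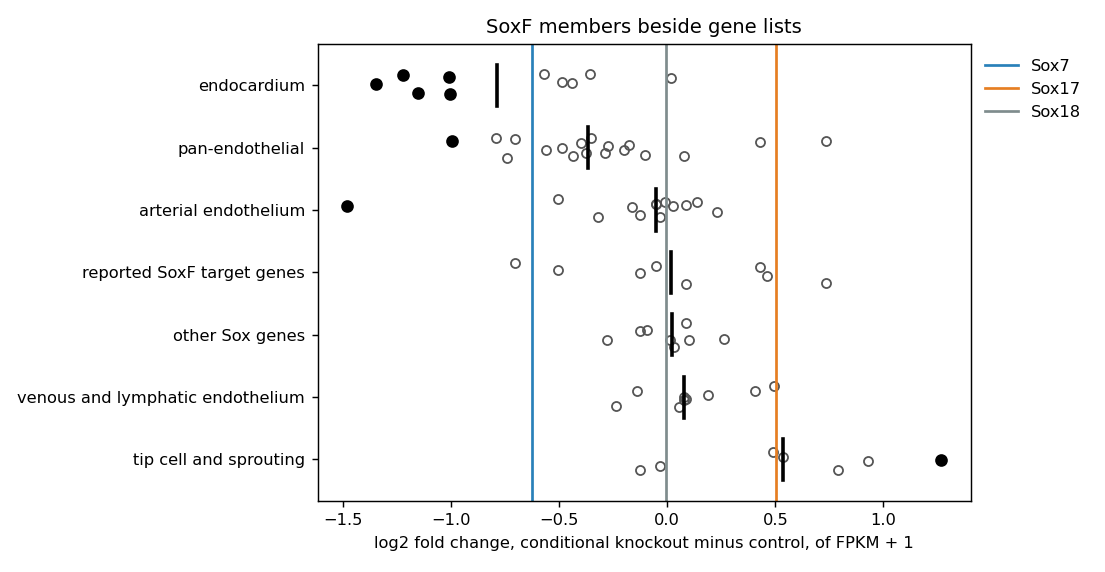
Log2 fold changes, conditional knockout minus control, of tested genes in 7 lists, with short black lines at the list medians, filled points for genes past the limma threshold and vertical lines at the 3 SoxF members. Sox7 at -0.63 lies between the medians of the endocardial (-0.79) and pan-endothelial (-0.37) lists, and Sox17 at 0.50 lies near the tip cell median of 0.53.

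The members differ in the vessel type they are known for, and lists of arterial, venous and sprouting genes were set beside them. Of 13 arterial genes, Gja4, the connexin 37 gene, fell (limma log2 fold change -1.48 ± 0.16, adjusted p = 0.0232), 12 did not pass and the median was -0.053. The unadjusted limma p was under 0.05 for 3 of the 13, all of them lower. Gja4 passed without knockout replicate 1 or control replicate 3 and missed the threshold without any of the other 4 libraries, up to an adjusted p of 0.158. Sox17, known for arterial endothelium, lay above all 13 of them. Gja5 stood at 58.4 ± 1.20 FPKM in conditional knockouts and 65.4 ± 3.49 FPKM in controls (SD, n = 3 each). None of the 9 venous and lymphatic genes passed in limma, with 1 lower and 2 higher at an unadjusted p under 0.05 and a median of 0.080. Sox18, known for the lymphatic lineage, lay below 7 of these 9. Prox1, its lymphatic target, was at 9.42, 11.5 and 13.7 FPKM in the conditional knockout libraries, against 9.55, 11.03 and 11.7 FPKM in the control libraries. In entire hearts, RNA of these listed genes from endothelium and from other cells, heart muscle included, cannot be told apart.

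Of 7 tested genes of tip cells and sprouting, Esm1, the endocan gene, rose (limma log2 fold change 1.27 ± 0.14, adjusted p = 0.0219), 6 did not pass and none fell. At an unadjusted p under 0.05, 5 of the 7 were higher and none was lower. Like Sox17, Esm1 and Angpt2 (mean of 0.833 FPKM in controls) reached the minimum mean of 1 FPKM only through their knockout values. Both are among the 5 higher genes, so no conclusion is drawn from that count or from the Esm1 call. With the replicate block the adjusted p of Esm1 was 0.0921, and without any single library it was 0.056 to 0.155. On the log2(FPKM + 1) scale Sox17 lay within this list, with Esm1, Kcne3, Pdgfb and Fabp4 above it and 3 genes below. By the ratio of mean FPKM, knockout over control, Fabp4 at 1.64 was below Sox17 at 1.94. Sox17 and Esm1 share a low level, with Esm1 at 2.29, 2.34 and 2.40 FPKM in the conditional knockout libraries, against 0.335, 0.433 and 0.401 FPKM in the control libraries.

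Genes reported elsewhere as SoxF targets went in both directions. None of the 8 tested passed in limma, with 2 lower and 2 higher at an unadjusted p under 0.05, and their median was 0.016. Cdh5, used above as a reference, had the lowest log2 fold change of the list, at -0.71 ± 0.13 (limma adjusted p = 0.189). Notch1, whose arterial enhancer is bound by SoxF factors, was at 5.01 ± 0.8996 FPKM in conditional knockouts and 7.48 ± 0.583 FPKM in controls (SD, n = 3 each). Its log2 fold change was -0.51 ± 0.13 (limma adjusted p = 0.463), and the groups did not overlap. Robo4 was at 2.69, 3.39 and 3.30 FPKM in the conditional knockout libraries, against 0.952, 1.80 and 1.75 FPKM in the control libraries. Vcam1, an adhesion gene reported as a Sox18 target, was at 32.3, 35.3 and 36.5 FPKM in the conditional knockout libraries, against 23.01, 25.02 and 26.8 FPKM in the control libraries. Cldn5 was at 5.22, 2.46 and 1.67 FPKM in the conditional knockout libraries, against 2.43, 1.78 and 1.46 FPKM in the control libraries. Mmp7 was listed at 0 in all 6 libraries. None of 8 partner and beta-catenin pathway genes passed in limma, and none did at an unadjusted p under 0.05. The most abundant of them, Ctnnb1, was at 212 ± 28.6 FPKM in conditional knockouts and 221 ± 27.2 FPKM in controls (SD, n = 3 each).

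Within the whole Sox family the order of SoxF members differed between the groups. Of 20 Sox genes including Sry, ranked by mean FPKM, Sox7 was in place 6 in conditional knockouts and place 4 in controls. Sox18 was in place 4 in conditional knockouts and place 5 in controls, and Sox17 in place 11 in conditional knockouts and place 12 in controls. Sox18 and its neighbours Sox13 and Sox7 did not all separate: in control replicate 3, Sox18 at 6.52 FPKM was below Sox13 at 6.83 FPKM. Sox4, Sox12 and Sox9, which belong to other groups of the family, had higher means than all SoxF members in both groups. In control replicate 1 Sox9, at 10.7 FPKM, was below Sox18, at 11.1 FPKM. Of the 8 other Sox genes tested none passed in limma and none did at an unadjusted p under 0.05. Their log2 fold changes ran between -0.28 (Sox3) and 0.26 (Sox9), with a median of 0.022, and Sox7 lay below and Sox17 above all 8.

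The genes most like each member were sought by the mean absolute difference of log2(FPKM + 1), centred on each gene's own mean, over the 6 libraries and 10633 genes. For Sox7 they were Sall1 at 0.027, Ggta1 at 0.053 and Tie1 at 0.058. Tie1 encodes the receptor that pairs with Tie2. It stood at 14.1, 15.4 and 13.6 FPKM in the conditional knockout libraries, against 23.2, 26.7 and 24.3 FPKM in the control libraries, and its log2 fold change was -0.74. For Sox17 they were Yy2 at 0.023, Kctd18 at 0.062 and G2e3 at 0.065. For Sox18 they were Spin2c at 0.029, Aprt at 0.044 and the ribosomal protein gene Rps26 at 0.045, which share its order of replicate numbers. Likeness over 6 libraries in 2 groups includes the group difference itself and is a description only.

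Markers of other cell types differed both between single libraries and between the groups. Conditional knockout replicate 1, the library with the highest Sox17, also had the highest levels of the epithelial and endodermal genes Cldn6, Epcam and Foxa1 and of Sox2. Cldn6 was at 6.50, 0.297 and 0.56 FPKM in the conditional knockout libraries, against 0.165, 0.0182 and 0.0272 FPKM in the control libraries. Epcam was at 3.84, 0.428 and 0.617 FPKM in the conditional knockout libraries, against 0.344, 0.276 and 0.275 FPKM in the control libraries. Cldn6, Epcam and Sox2 were, like Sox17, higher in all 3 knockouts than in any control, and their part in the Sox17 difference was not tested. Sox17, an endoderm gene as well, was 1.34 and 1.51 FPKM in the other 2 knockouts, still above every control, and without replicate 1 of the knockouts its log2 difference was 0.43.

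The 12 endoderm and liver markers summed to 16.9, 212 and 2.19 FPKM in the conditional knockout libraries, against 77.3, 20.5 and 24.1 FPKM in the control libraries. Of the 5 that could be tested, none passed in limma or at an unadjusted p under 0.05, and Cdx2 was listed at 0 in every library. The liver genes Afp and Alb make up most of the larger sums. Knockout replicate 3 had the lowest sum, although its Cldn6 and Epcam levels were above those of every control. The 8 markers of blood stem and progenitor cells, a further place of Sox17 expression in the foetus, summed to 11.4, 14.6 and 10.5 FPKM in the conditional knockout libraries, against 13.01, 13.9 and 14.8 FPKM in the control libraries. None of the 3 tested passed in limma or at an unadjusted p under 0.05. Eif2s3y, a Y-linked gene, was at 34.1, 52.8 and 55.6 FPKM in the conditional knockout libraries, against 17.7, 20.01 and 40.96 FPKM in the control libraries, and the part of embryo sex in the SoxF values was not tested.

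**Figure D5:**
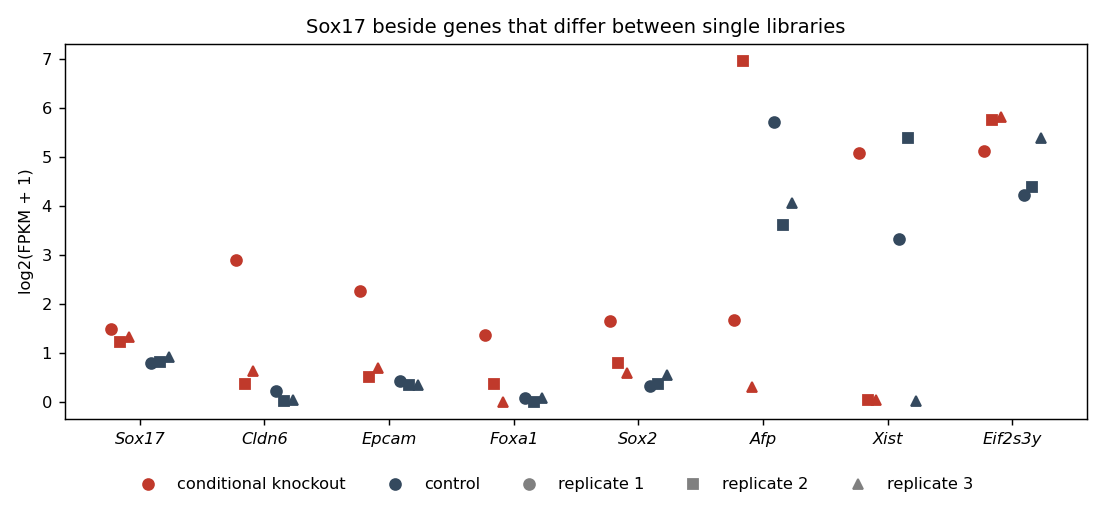
Log2(FPKM + 1) in each library, with conditional knockouts left of controls. The genes are Sox17, the epithelial and endodermal genes Cldn6, Epcam and Foxa1, then Sox2, the liver gene Afp and the sex-linked genes Xist and Eif2s3y. Knockout replicate 1 stands above the other libraries for Cldn6, Epcam, Foxa1 and Sox2, and Cldn6, Epcam, Sox2 and Sox17 are each higher in all 3 knockouts than in any control.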

How the data were processed

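RNA of whole embryonic hearts was extracted with Trizol and libraries were made with a Tru-seq kit, per the labels' protocols. The authors deposited FPKM values in 1 table, and the submitters' processing notes name TopHat2 2.0.9, Cufflinks 2.2.1, Cuffdiff and HTSeq with build mm10, without role or order. The sources used here do not give the annotation release, the strand setting or the handling of reads that match more than 1 gene. No counts are given. Ratios of values under 0.3 FPKM between libraries put at most 14.1% of genes at 1 ratio, so depth was not recovered. Its absolute size is unknown.

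The fit used log2(FPKM + 1) of 12988 genes whose mean reached 1 FPKM, in limma 3.58.1 in R 4.3.3 (intensity trend, Benjamini-Hochberg adjustment, threshold 0.05), a procedure tested on simulated data. SE is limma's moderated SE, and SD is over 3 libraries. Ratios use FPKM with no pseudocount. P-values reflect the spread between these libraries alone. If the libraries are portions of a pool, as the series text describes, then SD, SE and p-values do not measure the variation between embryos.

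Libraries that share a number deviated together from their group means, with correlations of 0.27 (replicate 1), 0.11 (replicate 2) and 0.44 (replicate 3) over 12805 tested genes above 0 in every library, each over 0.1, and the replicate numbers, which the labels give to both groups, were taken as pairs. Over all tested genes replicate 2 reached 0.031, so its pairing is uncertain. Positions come from GENCODE M21 on GRCm38, the assembly behind mm10, where 37607 of 38918 identifiers were found. Members, lists and rules were chosen with earlier results of these data known. The rule named the 3 members, Tek, Cdh5, Pecam1, the 3 genes most like each member among those with a mean of at least 2 FPKM, the sex-linked genes and, per list, the genes past the threshold, the 3 with the largest change and the most abundant. Other genes were named after their values were seen. Alternatives covered the pseudocount, scaling, filter, trend, replicate block, each library left out, replicates 2 and 3 alone, and the endothelial gene.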

Additional observations from a re-analysis of the deposited data

How the results depend on the processing

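Sox7 stayed below 0 and Sox17 above 0 under all 12 alternatives run for each. The groups of these genes do not overlap, so the block, another pseudocount or a left-out library could not have changed either sign. Only the sizes of these differences are informative. Sox18 lay between -0.17 and 0.17 on the log2 scale. With a pseudocount of 0.1 the log2 difference was -0.70 for Sox7 and 0.87 for Sox17, and with 0.5 it was 0.65 for Sox17, since a smaller pseudocount shrinks low genes less. With 1 FPKM added, the difference of the log2 ratios was 1.13 for Sox17 to Sox7 and 0.51 for Sox17 to Sox18. With Pecam1 in place of Cdh5 the differences were -0.32 for Sox7 and 1.34 for Sox17, and with the endothelial list -0.40 and 1.25. Without a single library, Sox7 ran between -0.65 and -0.59, Sox17 between 0.43 and 0.56, Sox17 to Sox7 between 1.54 and 1.79, Sox18 to Sox7 between 0.54 and 0.92, and Sox17 to Sox18 between 0.71 and 1.23.

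The number of lower genes over the whole table was 16. It was 4 to 9 without a single library, 8 within replicates 2 and 3 and 7 with no filter on low values. The number of higher genes, 7, was 6 to 11 without a single library. The replicate block gave 11 lower and 6 higher and left the member differences at -0.63, 0.50 and -0.0058 for Sox7, Sox17 and Sox18. Among the named genes it ended the calls of Esm1 and Tmem100 and no other. The causes were not tested. Depth is unknown, which limits Sox17, the least abundant member, most.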

Other observations

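Among the low Sox genes outside the SoxF group, Sox2 was higher in all 3 knockout libraries than in any control, and most so in replicate 1. It was at 2.17, 0.734 and 0.507 FPKM in the conditional knockout libraries, against 0.259, 0.291 and 0.468 FPKM in the control libraries. Sox21 was also higher in all 3 knockouts, at no more than 0.0473 FPKM. Sox10, a neural crest gene, was at 1.19, 0.546 and 0.41 FPKM in the conditional knockout libraries, against 0.384, 0.747 and 0.509 FPKM in the control libraries. Sry was listed at 0 in all 6 libraries, although Eif2s3y was above 17 FPKM in each of them.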
